A study of Homo sapiens with 36 samples.

Results

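A pair of sunitinib-resistant kidney cancer cell sets was compared, 786-O resistant cells and cells labelled A498 resistant, across 18 of the 36 libraries of the study. The libraries were chosen by their labels alone: 9 of 786-O resistant cells and 9 of cells labelled A498 resistant, with 3 libraries for each of 3 antibodies in either set. A498 and 786-O, both established human lines, come from clear cell renal carcinoma, and the other 18 libraries are their parental cells. Per the labels, parental cells were grown in rising sunitinib until they became confluent, which 786-O did at 4 µM and A498 at 2 µM. Every library came from cells given atezolizumab, avelumab or durvalumab for 24 h, at 10 mg/mL in the unit that the labels print, so antibody treatment is common to all groups compared and no untreated library was analysed here. The mean of the 3 antibody groups of 1 set was compared with the mean of the 3 antibody groups of the other. Differences are given as 786-O resistant minus A498-labelled resistant, on the log2 scale. The batch label differs between the sets and is the same within each, so batch and set cannot be told apart.

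Sunitinib blocks receptor tyrosine kinases for vascular endothelial growth factor, platelet-derived growth factor and other ligands, and clear cell tumours depend on vascular endothelial growth factor because loss of VHL leaves hypoxia-inducible factors active. Atezolizumab, avelumab and durvalumab bind PD-L1, the checkpoint ligand encoded by CD274. Tumour cells also shape immunity through cytokines induced by NF-kappaB, which recruit myeloid cells, and through interferon-stimulated genes, which are switched on by STAT and IRF transcription factors and serve antiviral defence.

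The label of the A498 set was checked first against the parental cells. Of protein-coding and long non-coding genes, 67 reached 10 CPM (read counts scaled to a common library total) in A498 parental cells and at most 0.1 CPM in 786-O parental cells, and 28 did the reverse. None of the 67 A498 genes reached 10 CPM in either resistant set. Their median level was 0.517% of the A498 parental level in the A498-labelled resistant cells and 0.294% in the 786-O resistant cells. PTPRN, a secretory-granule protein and the highest of these genes, averaged 88.1 ± 2.08 CPM (SD, n = 9) in A498 parental cells, 0.338 ± 0.102 in the A498-labelled set and 0.0215 ± 0.0250 in the 786-O resistant set. KCTD15, ADD2 and PPP2R2C averaged 81.6, 79.6 and 66.9 CPM in A498 parental cells and at most 0.168 CPM in either resistant set. The gene nearest to its parental level was CERS4, a ceramide synthase, at 7.52 CPM in the A498-labelled and 8.36 CPM in the 786-O resistant cells.

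The genes of 786-O cells went the other way. Of the 28, 22 reached 10 CPM in each resistant set, and their median level was 111% of 786-O parental cells in the A498-labelled set and 104% in the 786-O resistant set. CXCL5, a neutrophil chemokine, averaged 80.2 CPM in 786-O parental cells, 20.0 in the A498-labelled set and 47.5 in the 786-O resistant set, with 0.0865 CPM in A498 parental cells. MANEAL, with 23.2% of its exon bases inside a neighbour, averaged 54.2 and 65.5 CPM in the A498-labelled and 786-O resistant sets, PDE10A 73.8 and 71.5, and the non-coding RNA MAGI2-AS3 55.7 and 39.7. The exceptions included IGFBP4, an insulin-like growth factor binding protein, at 10.5 CPM in 786-O parental cells against 0.0472 and 0.323 CPM in the A498-labelled and 786-O resistant sets. In the 9 libraries of the A498-labelled set PTPRN was at most 0.550 CPM and PDE10A at least 70.3 CPM, so these libraries go against their line label. Every comparison that follows is one between these 9 libraries and the 9 of 786-O resistant cells, and no part of the set could be left out to give a value for A498.

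**Figure D1:**
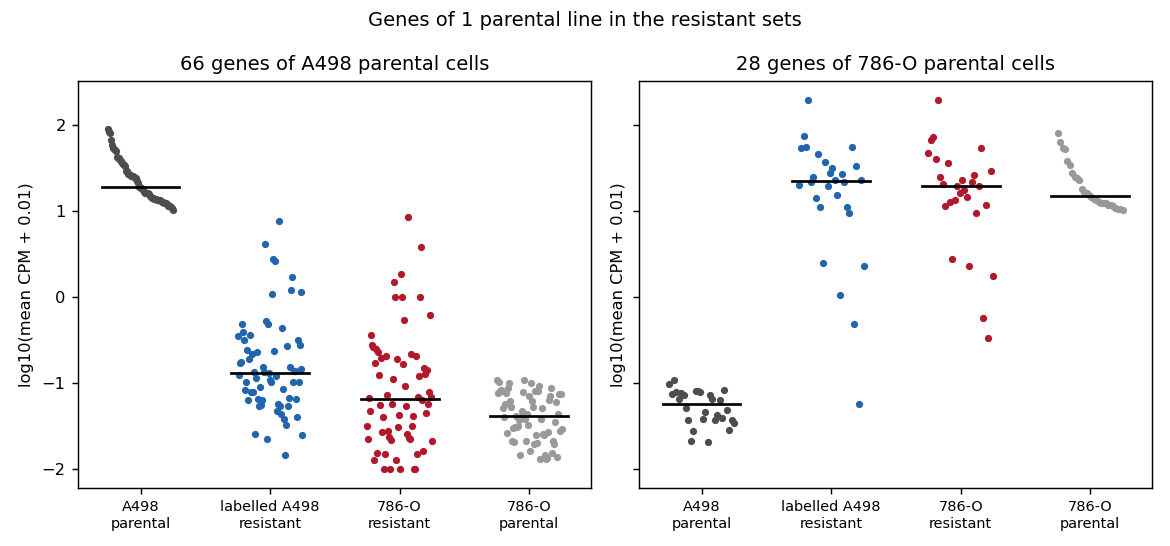
Mean level, as log10(CPM + 0.01), of genes specific to A498 parental cells (left; 66 of the 67 are drawn, without 1 non-coding gene) and to 786-O parental cells (right; 28) in the 4 cell states. Each point is a gene averaged over 9 libraries, and black lines are medians over genes. In both resistant sets the A498 genes lie below 10 CPM and most 786-O genes lie near their level in 786-O parental cells.

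Depth ranged from 19994882 to 37219906 counts per library in the A498-labelled set and from 32083005 to 51966798 in the 786-O resistant set. Transcripts of the mitochondrial genome took 1.82% ± 0.225 and 2.27% ± 0.253 of counts (SD, n = 9 each), and ribosomal protein genes 3.20% and 3.11%. Over all 36 libraries the first principal component carried 65.6% of the variance and the second 21.7%. The first put A498 parental libraries at 166.7 to 169.05 and all others, both resistant sets among them, at -57.8 to -54.0. The second set 786-O parental libraries apart from both resistant sets. On the third, which carried 4.19%, the resistant sets had opposite signs. Markers of other cell types were low. Of 32 leukocyte genes, 29 stayed under 1 CPM in all 18 libraries, 2 had no count at all, and the summed level was 4.52 to 5.85 CPM in 786-O resistant and 4.10 to 5.16 CPM in A498-labelled libraries. PTPRC, the pan-leukocyte phosphatase CD45, did not pass 0.0453 CPM. Of 23 endothelial and fibroblast genes, 16 stayed under 1 CPM, and the sums were 27.3 to 30.7 and 37.4 to 42.0 CPM. PECAM1 reached at most 0.200 CPM and DCN, a fibroblast proteoglycan, 0.0444 CPM. Of the 8 genes of that list that were tested, 2 were higher and 5 lower in 786-O resistant cells, among them PDGFRB, THY1 (10.7% shared with its antisense gene) and LUM, with a median of -0.56. Of 9 leukocyte genes tested, 3 were higher and 1 lower, with a median of 0.30. The sums are small, and their part in other results was not tested. In bulk RNA, fewer cells of a kind and less RNA per cell cannot be told apart.

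The sets differed in many genes by small amounts. Of 19196 genes tested with edgeR, 13243 (69.0%) passed at an adjusted p of 0.05, 6755 (35.2%) higher and 6488 (33.8%) lower in 786-O resistant cells. Of those called, 10106 (76.3%) differed by less than 1.5-fold, and the median absolute difference over all tested genes was 0.248. At least 2-fold differences were fewer, with 437 genes (2.28%) higher and 575 (3.0%) lower, and 74 and 105 genes reached 4-fold. No gene with a symbol was at 5 CPM or more in 1 set and at 0.1 CPM or less in the other. The mean log2(CPM + 1) levels of the sets correlated at a Pearson r of 0.991 across genes, which are not independent replicates. With each antibody taken alone, 10460 genes (54.5%) differed under atezolizumab, 9401 (49.0%) under avelumab and 9388 (48.9%) under durvalumab, and 7051 (36.7%) passed with the same sign under all 3. With a GC trend taken out of each library, described at the end, 9039, 8521 and 8745 genes differed under these antibodies. The 9 libraries of 1 set did not overlap with the 9 of the other for 6230 genes (32.5%). Since most genes were called, a list's count is read below against 35.2% higher and 33.8% lower. Its count of genes without overlap is read against 32.5%, and its median against 0.02 over all tested genes.

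Genes induced by NF-kappaB were higher in 786-O resistant cells. The list held 33 tested genes, of which 27 were higher (12 of them at least 2-fold) and 3 lower, with a median of 0.74, and for 25 the libraries of the sets did not overlap. The neutrophil chemokine CXCL8 (chr4:73740506-73743716, GRCh38) and CCL20, a ligand of CCR6, stood among the most different, and their start regions are printed because they hold the letters of an NF-kappaB site. In RefSeq promoters (GRCh38.p14, 300 bases ending 50 bases after the start), GGNNTTTCC was searched on both strands. It occurred in 16 of 23 promoters of this list (69.6%), in 9 of 54 of the interferon list (16.7%) and in 832 of 12204 tested genes with an entry (6.82%). This motif was chosen after the data were seen, and a match describes letters, not binding. The 250 bases before the start follow, with the match in capitals, for CXCL8 at chr4:73740319-73740568 and CCL20 at chr2:227813592-227813841, both plus strand. In CCL20 the match lies on the minus strand, so its reverse complement is seen.
CXCL8: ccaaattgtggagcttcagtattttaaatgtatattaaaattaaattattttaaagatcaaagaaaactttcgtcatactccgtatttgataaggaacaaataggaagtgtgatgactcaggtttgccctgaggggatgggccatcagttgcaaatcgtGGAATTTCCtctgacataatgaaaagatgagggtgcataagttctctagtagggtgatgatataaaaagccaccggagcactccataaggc
CCL20: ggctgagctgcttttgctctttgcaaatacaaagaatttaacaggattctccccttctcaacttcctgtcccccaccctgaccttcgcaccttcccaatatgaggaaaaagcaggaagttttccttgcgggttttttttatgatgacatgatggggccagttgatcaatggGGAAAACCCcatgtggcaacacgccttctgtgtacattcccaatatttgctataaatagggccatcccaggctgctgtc

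CXCL8 ranged from 35.0 to 57.1 CPM (median 48.6) in 786-O resistant libraries and from 5.40 to 7.502 (median 5.78) in A498-labelled libraries. Every 786-O resistant library lay above every A498-labelled one, and the log2 difference was 2.95 ± 0.06 (SE; adjusted p = 6.88e-21). CSF2, the cytokine GM-CSF (chr5:132073790-132076170), ranged from 6.61 to 10.6 CPM (median 9.33) against 0.752 to 1.61 (median 0.939), a difference of 3.23 ± 0.09 (adjusted p = 4.84e-25). Parental cells averaged 13.6 CPM of CSF2 in 786-O and 11.5 in A498, so the A498-labelled resistant libraries were the low ones of the 4 states. TNF, tumour necrosis factor (chr6:31575567-31578336), ranged from 2.94 to 5.14 CPM (median 4.22) against 0.169 to 0.770 (median 0.5001), a difference of 3.17 ± 0.13. CCL20 ranged from 1.75 to 3.01 CPM (median 2.23) against 0.163 to 0.537 (median 0.400), a difference of 2.70 ± 0.14, and neither parental line passed 0.169 CPM on average. These 4 genes were higher in 9 of 9 libraries than in any A498-labelled library. The A498-labelled values of TNF and CCL20 rest on 102 and 80 counts over 9 libraries. CSF2 and TNF had no match to the motif in their windows.

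Other secreted members followed. Mean levels in 786-O resistant and A498-labelled cells were 48.1 and 14.5 CPM for IL6, 2.84 and 0.621 for the chemokine CXCL1, and 10.1 and 4.62 for the monocyte chemokine CCL2. The adhesion molecule ICAM1 averaged 539 and 309 CPM. IL6 and ICAM1 share 20.7% and 23.6% of their exonic length with antisense genes. Feedback inhibitors were also higher, with TNFAIP3 at 63.4 and 20.8 CPM and NFKBIA at 63.8 and 33.5 CPM. The subunit genes NFKB2 and RELB differed by 0.59 and 0.74. The 3 lower members were NFKBIZ at -0.45, the acute-phase gene SAA1 at -0.29 and the T-cell chemokine CCL5 at -0.16. LCN2, PTGS2 and IL1B did not pass, all under 1 CPM in both sets.

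Interferon-stimulated genes were lower in 786-O resistant cells. The list held 68 tested genes, of which 62 were lower (8 of them at least 2-fold) and 2 higher, with a median of -0.56, and for 57 the libraries did not overlap. The letters GAAA, then any pair of bases, then GAAA, the core of an interferon-stimulated response element, are a known mark of such genes and can share bases with the NF-kappaB letters. They occurred on either strand in 34 of 54 promoters of the list (63.0%), in 1 of 23 of the NF-kappaB list (4.35%) and in 347 of 12204 tested genes (2.84%). The 250 bases before the start are shown in the same way for 2 of the members named below that hold them, IFI44L at chr1:78620198-78620447 and RTP4 at chr3:187368135-187368384, both plus strand. IFI44L holds them 164 and 73 bases before the start, and RTP4 42 and 18 bases before.
IFI44L: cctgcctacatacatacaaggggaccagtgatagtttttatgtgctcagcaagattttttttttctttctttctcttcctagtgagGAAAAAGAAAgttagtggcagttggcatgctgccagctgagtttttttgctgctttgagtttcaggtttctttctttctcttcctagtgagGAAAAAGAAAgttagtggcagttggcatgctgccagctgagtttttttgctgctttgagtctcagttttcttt
RTP4: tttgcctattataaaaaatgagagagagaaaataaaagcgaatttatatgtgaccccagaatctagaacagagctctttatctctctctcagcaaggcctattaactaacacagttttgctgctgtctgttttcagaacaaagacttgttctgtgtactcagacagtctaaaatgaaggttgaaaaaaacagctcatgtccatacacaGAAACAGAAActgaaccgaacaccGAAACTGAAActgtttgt

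IFI44L, an interferon-induced protein that restrains viral replication, ranged from 80.0 to 98.1 CPM (median 89.6) in 786-O resistant libraries and from 196 to 222 (median 213) in A498-labelled libraries. The ranges did not overlap, and the difference was -1.23 ± 0.03 (adjusted p = 6.51e-24). RTP4, a receptor-transporting protein, ranged from 1.83 to 2.44 CPM (median 2.29) against 3.73 to 6.25 (median 5.04), a difference of -1.16 ± 0.08. MX2, an antiviral GTPase (chr21:41361943-41409390), ranged from 27.5 to 33.9 CPM (median 32.8) against 71.6 to 80.5 (median 75.8), a difference of -1.23 ± 0.04. IFITM1, a membrane protein that blocks viral entry, differed most, at 8.23 to 14.6 CPM (median 9.84) against 38.9 to 48.6 (median 43.1) and a difference of -1.998 ± 0.05. IFITM1 shares 32.5% of its exonic length with IFITM2, so its value is uncertain. All 4 averaged less in 786-O parental than in either resistant set, with MX2 at 1.17 and IFI44L at 8.37 CPM there.

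The signalling genes of the pathway were part of the same list. STAT2 averaged 112 CPM in 786-O resistant and 182 CPM in A498-labelled cells, a difference of -0.67. IRF7 differed by -0.60 and the RNA sensor IFIH1 by -0.41. IRF9, which shares 48.4% with a neighbour, was at 1.24 and 1.27 CPM and did not pass. The 2 higher members were BST2, which tethers virions at the membrane, at 454 and 431 CPM, and PARP10 at 148 and 140 CPM. The chemokines CXCL10 and CXCL11, at 2.28 to 2.95 CPM, and GBP5 did not pass.

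**Figure D2:**
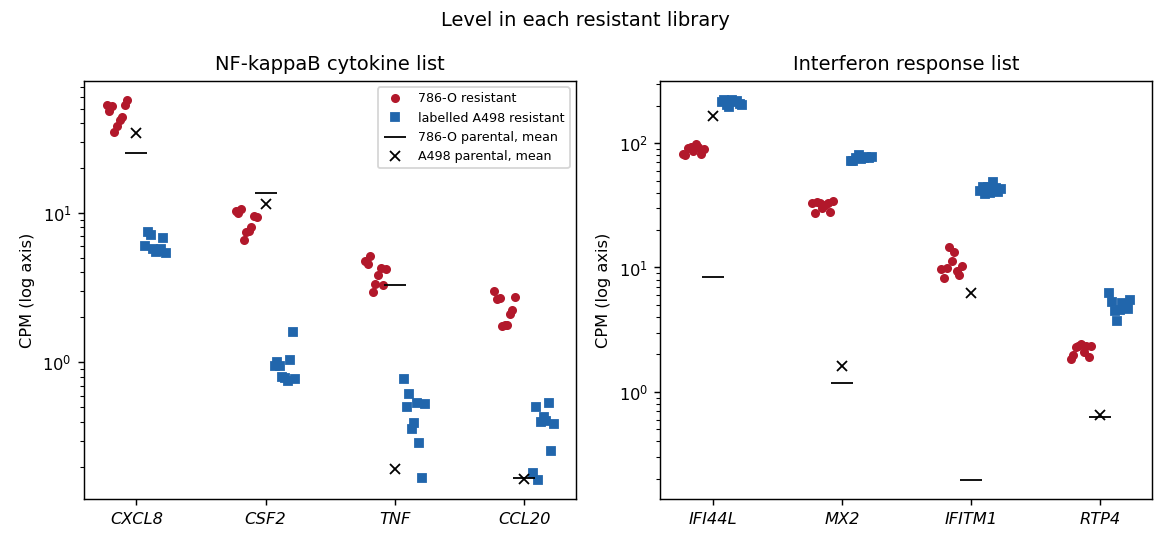
Level in CPM (log axis) of 4 NF-kappaB genes (left) and 4 interferon genes (right) in the 9 libraries of each resistant set, with the mean of each parental line as a dash (786-O) or a cross (A498). The left-hand genes are higher in every 786-O resistant library (CXCL8 from 35.0 CPM, against at most 7.502) and the right-hand genes lower in every one (MX2 at most 33.9 CPM, against at least 71.6).

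Antigen presentation and checkpoint genes differed less. PD-L1 itself, the antibodies' target, was at 8.32 to 9.38 CPM (median 8.99) in 786-O resistant and 6.89 to 9.75 CPM (median 8.92) in A498-labelled libraries. The ranges of CD274 overlapped and its difference of 0.05 ± 0.05 did not pass (adjusted p = 0.419). With a GC trend taken out of each library, described at the end, it was 0.22 (adjusted p = 0.000236). Of 22 class I genes, 11 were higher and 5 lower, with a median of 0.05. HLA-C and HLA-F, which present or resemble presenting molecules, were higher by 0.57 and 0.75, and HLA-G, at 0.991 to 4.13 CPM against 0.226 to 0.550, by 2.32 ± 0.38. Counts of these near-identical genes can be split between copies, so they are uncertain, and HLA-F and HLA-G also share 28.5% and 25.8% with neighbours. B2M, their shared light chain, differed by -0.27. Of 9 class II genes, 2 were higher and 6 lower, with a median of -0.34. CD74, the invariant chain, was at 19.7 to 23.3 CPM against 32.5 to 40.3 (difference -0.78), and HLA-DPB1 and HLA-DMA differed by -0.89 and -0.50. CIITA, the class II transactivator, was higher by 0.47, and shares 23.4% of its exonic length with DEXI. Of 22 checkpoint ligands, 8 were higher and 11 lower. LGALS9, galectin-9 and a ligand of TIM-3, was at 10.8 to 16.2 CPM (median 13.2) against 31.2 to 36.5 (median 32.6), a difference of -1.30 ± 0.05. VTCN1 differed by -0.73, TNFRSF14 (13.4% shared with its antisense gene) by 0.66 and CMTM4, a stabiliser of PD-L1, by 0.55.

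The lowest gene in 786-O resistant cells relative to A498-labelled cells, among the named genes, was CLDN16. CLDN16 (chr3:190322541-190412143), a tight-junction protein of the thick ascending limb that carries magnesium, was at 0.491 to 1.12 CPM (median 0.923) in 786-O resistant libraries and 10.9 to 12.8 (median 12.2) in A498-labelled libraries. That is a difference of -3.75 ± 0.08 (adjusted p = 3.54e-28), with neither parental line above 0.289 CPM on average. CLDN2, a claudin of the proximal tubule (chrX:106900164-106930861), was at 3.55 to 7.21 CPM (median 4.48) against 35.1 to 45.5 (median 41.1), a difference of -3.06 ± 0.05, and shares 10.0% of its exonic length with RIPPLY1. KCNJ16, a potassium channel of the distal nephron, was at 0.467 to 1.37 CPM against 4.92 to 8.55 (difference -3.19), and UGT2A3, a glucuronosyltransferase, at 1.37 to 2.096 against 9.45 to 12.6 (difference -2.80). The gene of filaggrin, FLG, a structural protein of skin, was at 97.8 to 153 CPM against 544 to 767, a difference of -2.38 ± 0.09, and its antisense gene FLG-AS1 differed by -2.18. Reads of FLG and FLG-AS1 may be hard to tell apart where they overlap. AIF1L, an actin-bundling protein, the heparan sulfate sulfotransferase HS6ST2, the carboxypeptidase CPVL and the non-coding RNA LINC02274 differed by -2.51, -2.42, -2.099 and -2.69, and DHRS3, a retinal reductase, by -2.24.

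Among the highest genes in 786-O resistant cells, besides CSF2 and CXCL8, were SPINT1 and ANGPTL4. SPINT1, an inhibitor of hepatocyte growth factor activator (chr15:40844018-40858207), was at 93.0 to 109 CPM (median 101) against 23.3 to 28.9 (median 26.9), a difference of 1.96 ± 0.03, and SPINT1-AS1 differed by 2.13. ANGPTL4, a lipoprotein lipase inhibitor and hypoxia target (chr19:8363289-8374373), was at 15.8 to 22.5 CPM (median 17.01) against 3.47 to 5.74 (median 4.37), a difference of 2.06 ± 0.06. N4BP3 was at 28.8 to 38.1 CPM against 6.58 to 9.78, and GOLGA7B and SYT13 differed by 2.01 and 1.82. Of the 12 highest, 3 were pseudogenes, RPL35P2 (3.72), TAGLN2P1 (2.20) and RPS11P5 (2.104), whose reads can come from their parent genes. A neighbour also covers 85.7% of the exon bases of RPL35P2. Of 808 processed pseudogenes tested, 11.9% were at least 2-fold higher in 786-O resistant cells, against 1.62% of protein-coding genes.

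Of 12 tested genes of sunitinib targets and their ligands, 7 were higher and 2 lower in 786-O resistant cells. PDGFRB, the platelet-derived growth factor receptor beta (chr5:150113837-150155872), was at 0.514 to 0.711 CPM (median 0.623) in 786-O resistant libraries and 5.35 to 7.00 (median 6.22) in A498-labelled libraries, a difference of -3.26 ± 0.09 (adjusted p = 1.03e-24). Both parental lines averaged at most 0.302 CPM. PDGFB, a ligand of this receptor, was at 59.8 to 69.6 CPM against 27.8 to 33.7 (difference 1.02 ± 0.03). CSF1, the ligand of another sunitinib target, CSF1R, was at 332 to 412 CPM against 210 to 220 (difference 0.82), and PGF, placental growth factor, a ligand of a VEGF receptor, at 1.75 to 2.62 against 1.11 to 1.40 (difference 0.90). VEGFA averaged 221 and 206 CPM, a difference of 0.14. Of 26 other receptor tyrosine kinases, 14 were higher and 10 lower. The pseudokinase PTK7 was at 2.87 to 3.71 CPM against 0.3001 to 1.30 (difference 2.17), MST1R differed by 2.03, the Wnt receptor ROR2 by 1.09 and the collagen receptor DDR2 by -1.40.

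Drug transporters and lysosomal genes, which bear on sunitinib uptake and storage, moved in both directions. Of 22 transporters, 6 were higher and 12 lower. The lipid transporter ABCA3 was at 68.8 to 80.4 CPM against 29.8 to 34.0 (difference 1.27 ± 0.03). The organic cation transporter SLC22A2, the efflux pump ABCC2 and ABCB5 differed by -1.77, -1.52 and -1.46. ABCG2, the breast cancer resistance protein, averaged 3.52 and 6.01 CPM (-0.75), and ABCB1, P-glycoprotein, 28.2 and 30.8 CPM (-0.10). Of 57 lysosomal genes, 28 were higher and 19 lower, none by 2-fold. The hydrolases GAA and ARSA were higher by 0.76 and 0.74 and IDS by 0.86 (17.4% shared with a neighbour), and GPNMB, a lysosomal membrane protein, differed by -0.70.

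Genes of oxygen sensing differed by under 2-fold. EPAS1, which encodes HIF-2alpha, was at 230 to 255 CPM (median 243) in 786-O resistant and 237 to 256 CPM (median 249) in A498-labelled libraries, and its difference of -0.00 ± 0.02 did not pass (adjusted p = 0.948). HIF1A was at 7.92 to 9.24 CPM (median 8.76) against 8.40 to 9.73 (median 8.999) and did not pass either (-0.02 ± 0.04, adjusted p = 0.743). Taking out the GC trend turned HIF1A to 0.30 (adjusted p = 9.62e-07). A498 parental cells averaged 294 CPM of HIF1A and 786-O parental cells 9.36, so both resistant sets were at the 786-O level. VHL, the tumour suppressor that marks hypoxia-inducible factors for degradation, was at 19.9 to 24.7 CPM against 28.0 to 32.0, a difference of -0.42 ± 0.04. CITED2, an inhibitor of these factors, differed by -0.52, the partner ARNT2 by 0.33 and the prolyl hydroxylase EGLN3 by 0.82. Of 14 genes of this machinery 5 were higher and 3 lower. Of 42 hypoxia-inducible factor targets, 23 were higher and 11 lower, with a median of 0.12. Besides ANGPTL4 they included the collagen hydroxylase P4HA2 (0.72), while CXCR4, at 0.184 and 0.426 CPM, differed by -1.22.

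Of 32 genes of glycolysis and the pentose phosphate route, 17 were higher and 13 lower, with a median of 0.08, but 11 higher and 18 lower with a median of -0.08 once the GC trend was taken out. ENO2 was higher by 0.44. LDHB, ALDOA and TIGAR differed by -1.74, 0.48 and -0.44, and these 3 share 33.4%, 53.5% and 45.6% of their exonic length with neighbours. Of 39 targets of NRF2, the oxidative stress factor, 19 were higher and 13 lower (16 and 17 without the GC trend). AKR1B10, an aldo-keto reductase, was at 1.23 to 1.70 CPM against 4.80 to 6.33 (difference -1.86), where A498 parental cells averaged 1640. The efflux pump ABCC3 differed by 0.73 and OSGIN1 by 0.89 (13.9% shared with a neighbour). Of 14 glutathione S-transferases 6 were higher and 2 lower. GSTT2B, which has a near copy, differed by 1.05, GSTA4 by 0.42, MGST1 by -0.28 and GSTZ1 by 0.22.

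Of 35 genes of cholesterol and fatty acid synthesis, 23 were lower and 6 higher in 786-O resistant cells, with a median of -0.27. STARD4, which moves cholesterol between membranes, was at 37.2 to 56.6 CPM (median 47.5) against 111 to 127 (median 119), a difference of -1.34 ± 0.03. INSIG1, the sterol sensor that retains SREBP in the endoplasmic reticulum, was at 180 to 246 CPM (median 189) against 451 to 486 (median 474), a difference of -1.21 ± 0.03. Neither gene's libraries overlapped between the sets. SC5D and LBR, enzymes of late sterol synthesis, differed by -0.92 and -0.82, HMGCS1 by -0.68 (15% shared with a neighbour), and PMVK was the most raised member at 0.48. SREBF2 and FASN did not pass.

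Of 43 genes of the ATF4 response, which answers amino acid shortage, 32 were lower and 8 higher, with a median of -0.22. CTH, cystathionine gamma-lyase, was at 8.99 to 11.4 CPM against 20.5 to 22.7 (difference -1.08 ± 0.04), the stress protein NUPR1 at 23.1 to 31.4 against 45.4 to 58.4 (-1.03) and KLHL24 at 14.4 to 20.5 against 32.3 to 38.9 (-1.02). The glycine transporter SLC6A9 was higher by 1.08, and ATF4 itself differed by -0.12. The count of higher members was 5 without 786-O resistant atezolizumab replicate 3. Of 63 cell cycle genes, 37 were lower and 14 higher, with a median of -0.10 and no 2-fold difference. RRM2, E2F8, GINS1 and CDKN2C differed by -0.59, -0.57, -0.51 and -0.48 (RRM2 shares 20.2% with a neighbour). Of 30 p53 targets 16 were higher and 12 lower, with PLK3 at 1.22, SPATA18 at 0.87, CCNG1 at -0.89 and TP53INP1 at -0.86. Of 22 replication-dependent histone genes 11 were higher and 1 lower, with a median of 0.36. These are near copies poorly caught by selection of polyadenylated RNA, and H4C14, H2AC8 and H2BC8, at or under 1.58 CPM, were higher by 1.505, 0.72 and 0.69 while H2AC6 differed by -0.65. Of 13 mitochondrially encoded genes 8 were higher and 1 lower. MT-CO1 was at 4605 to 6185 CPM against 2915 to 4511 (difference 0.51), MT-ND6, MT-ND5 and MT-CYB differed by 0.53, 0.50 and 0.44, and only MT-CO1 of these had no overlap between the sets.

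Matrix and cell-state genes differed without a common direction. Of 43 matrix genes 20 were higher and 11 lower, with a median of 0.05. LAMB3, a chain of laminin-332 in epithelial basement membrane, was at 134 to 174 CPM (median 157) against 54.8 to 65.2 (median 60.3), a difference of 1.39 ± 0.03. LAMA3, another of its chains, averaged 144 CPM in both sets and did not pass. COL6A3 differed by 1.20 and the proteoglycan gene LUM by -1.12. Of 38 genes of epithelial and mesenchymal state 20 were higher and 12 lower. Besides CLDN2, CD24, a surface glycoprotein, differed by -1.12, the gelatinase MMP2 by 0.99 and plakoglobin, JUP, by 0.91. Of 31 renal tubule genes 10 were higher and 15 lower. Besides KCNJ16, the transcription factors TFCP2L1 and HNF4G differed by -1.77 and -0.80 and the brush border peptidase ANPEP by 0.93. PAX8, the renal lineage factor, averaged 230 and 224 CPM and PAX2 did not pass. Of 17 markers of clear cell carcinoma lines 9 were higher and 5 lower, and 8 and 8 without the GC trend. CDH6, VIM and KRT19 differed by -0.76, 0.52 and 0.52 (VIM shares 24.4% with its antisense gene, CDH6 10.0% with a pseudogene).

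Of 18 tumour suppressors of clear cell carcinoma 11 were lower and 4 higher. STAG2 differed by -0.63 and MTAP by -0.44. Of 16 complement genes 5 were higher and 5 lower. C3, the central component, was at 129 to 150 CPM against 56.3 to 67.8 (difference 1.21), its inhibitor CFI differed by -1.17 and the protease gene C1R by -0.68 (CFI and C1R share 32.0% and 11.4% with neighbours). Of 19 iron-handling genes 6 were higher and 10 lower, but 9 and 7 without the GC trend. The iron exporter SLC40A1 differed by -0.85, the iron regulatory proteins IREB2 and ACO1 by -0.49 and 0.46, and the ferric reductase CYBRD1 by 0.47. Of 6 tested genes of the metallothionein list, 2 were higher, MT1X by 0.51 (18.1% shared) and MT1F by 0.36. Another 2 were lower, among them the zinc exporter SLC30A1, kept in this list though no metallothionein, at -0.54. MT2A at 0.11 did not pass (adjusted p = 0.133). The metallothionein genes themselves are near copies. Of 15 genes of the insulin-like growth factor axis 10 were higher and 4 lower. IGFBP3 was at 974 to 1355 CPM against 586 to 647 (difference 0.91), and the proteases PAPPA2 and PAPPA differed by 1.16 and 0.48 (PAPPA shares 21.2% with its antisense gene) and IGFBP1 by -1.04. Of 30 YAP-TEAD targets 12 were higher and 12 lower, and 9 and 14 without the GC trend. Among them F3, tissue factor, was at 97.0 to 136 CPM against 41.1 to 50.3 (difference 1.34), and NUAK2 and RBMS3 differed by 0.62 and -0.69. Of 35 genes of ERK feedback and immediate early response 17 were higher and 12 lower, and 13 and 16 without the GC trend. ETV4 differed by 1.17, EPHA4 by -0.76, DUSP6 by -0.81 (40.5% shared) and EGR1 by -1.86.

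**Figure D3:**
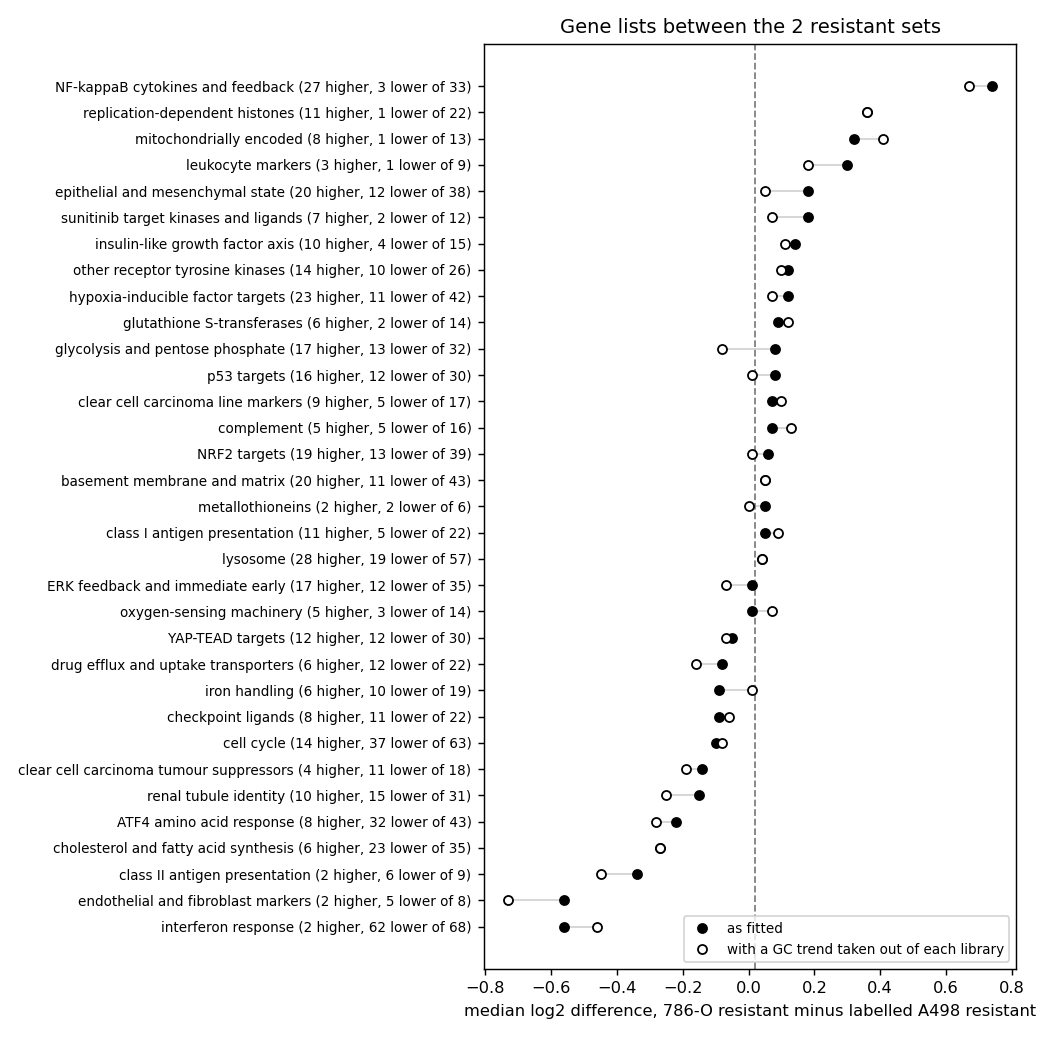
Median log2 difference of each gene list, 786-O resistant minus A498-labelled resistant, as fitted (filled) and with a GC trend taken out of each library (open). Labels give the members called higher and lower of those tested, and the dashed line is the median of all tested genes, 0.02. The NF-kappaB list lies highest at 0.74, and the interferon list and the endothelial and fibroblast list (8 genes) lowest at -0.56.

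Few genes passed a test of whether the difference between the sets depended on the antibody. The test of the interaction, joint over the 3 antibodies with 2 degrees of freedom, passed for 44 of 19196 genes (0.229%). At an unadjusted p under 0.05 it held 1984 genes. Interaction values below are for avelumab minus atezolizumab, but their adjusted p belongs to the joint test and not to that change alone. In 40 of the 44, the avelumab group was the highest of the 3 groups of 786-O resistant cells, and in 10 it was the highest of the 3 A498-labelled groups. In 41, the ratio of the highest to the lowest antibody group was larger in 786-O resistant cells. The interaction test that chose these genes used the same group means, so these counts only describe the genes chosen. The matching shares over all tested genes were not computed. Within 786-O resistant cells 349 genes (1.82%) differed between antibodies, with 3495 at an unadjusted p under 0.05. Within A498-labelled cells edgeR called 0 genes (0.0%), with 758 at an unadjusted p under 0.05, where DESeq2 called 2. Mean depth was 41595466 counts in the 786-O resistant and 24492963 in the A498-labelled libraries. With 3 libraries a group, a gene that did not pass may still depend on the antibody. The count of 44 was sensitive to single libraries and ran from 14 to 94 when 1 was left out.

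DHRS3 led these genes. In 786-O resistant cells its 3 libraries were at 4.66, 3.96 and 4.67 CPM under atezolizumab, 17.9, 12.99 and 13.8 under avelumab, and 6.29, 5.66 and 5.50 under durvalumab. A498-labelled libraries stayed between 32.3 and 38.0 CPM under all 3. The change from atezolizumab to avelumab was 1.69 greater in 786-O resistant cells (adjusted p of the joint test = 2.24e-08). The differences between the sets were -2.95, -1.253 and -2.53 under atezolizumab, avelumab and durvalumab. EGR1, an immediate early transcription factor (chr5:138465490-138469315), was at 2.00, 1.43 and 1.92 CPM under atezolizumab, 6.10, 5.12 and 5.27 under avelumab, and 1.91, 1.64 and 1.95 under durvalumab. Its A498-labelled libraries were at 10.5 to 11.5 CPM under the first 2 antibodies and 7.47 to 8.21 under durvalumab. The interaction for EGR1 was 1.53 (adjusted p = 1.63e-07), but did not pass in a fit of all 36 libraries (1.54, adjusted p = 0.317).

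MAP7D2, a microtubule-binding protein, was at 23.9 to 25.0 CPM in avelumab and 12.5 to 16.2 in the other 786-O resistant libraries, against 19.7 to 23.4 in the A498-labelled set. TXNIP, a thioredoxin inhibitor raised by glucose, was at 41.2 to 48.1 CPM in avelumab and 27.7 to 33.2 in the other 786-O resistant libraries, against 35.3 to 41.2 in the A498-labelled set. The avelumab libraries of 786-O resistant cells lay above the A498-labelled range for MAP7D2 and near or above its top for TXNIP, and their other libraries lay below its median for both. The interactions were 0.85 (adjusted p = 1.89e-06) and 0.58 (adjusted p = 0.000131), and TXNIP did not differ past the threshold when averaged over antibodies (-0.07, adjusted p = 0.0688). CLDN2 and CD24, named above, also passed, with interactions of 0.83 and 0.59.

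**Figure D4:**
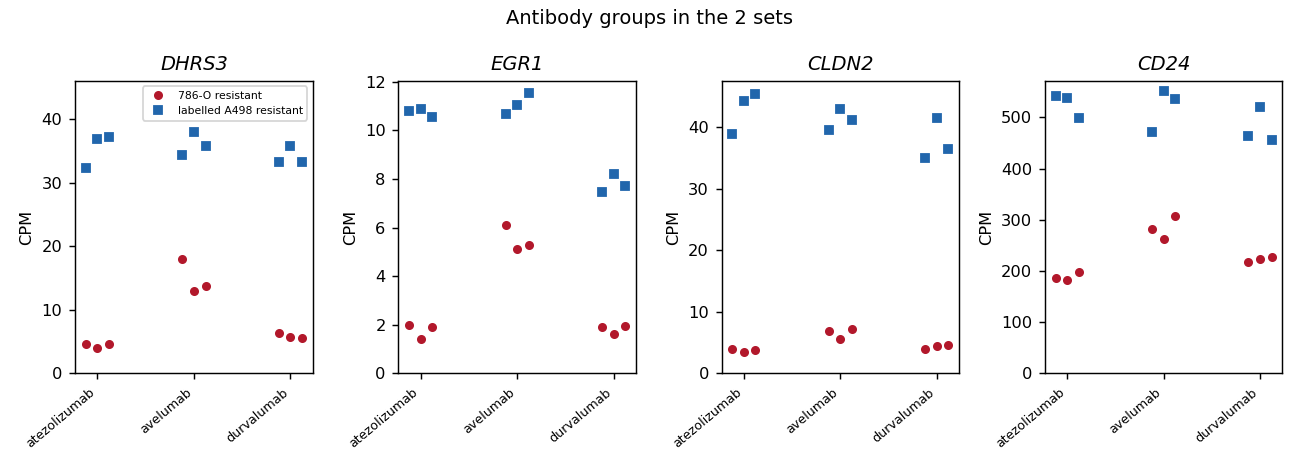
CPM (linear axis from 0) of 4 genes in each library by antibody, for 786-O resistant (circles) and A498-labelled resistant (squares) cells, 3 libraries a group. Each gene is higher in the avelumab libraries of 786-O resistant cells than in their other libraries (DHRS3 at 12.99 to 17.9 CPM against 3.96 to 6.29). For DHRS3, EGR1 and CLDN2 the avelumab libraries stay below the A498-labelled libraries. For CD24, the avelumab group of 786-O resistant cells averaged 284 CPM, against 480 to 526 CPM in the A498-labelled groups.

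The differences went with base composition. With genes at 1 CPM or more split into 5 equal bins by transcript GC percent, the median difference rose from -0.26 in the lowest bin through -0.10, 0.01 and 0.12 to 0.24 in the highest. In the lowest bin 71.1% of genes were called lower and 9.82% higher, and in the highest 11.3% and 68.7%. The trend was seen in each library: the median deviation of the highest bin minus that of the lowest was -0.303 to -0.159 in the 9 A498-labelled libraries and 0.098 to 0.376 in the 9 of 786-O resistant cells. Within 786-O resistant cells it was 0.329 to 0.376 under atezolizumab, 0.098 to 0.345 under avelumab and 0.106 to 0.224 under durvalumab. Its bearing on the genes that differed between antibodies within that set was not tested. By transcript length the medians ran from 0.13 in the shortest bin to -0.12 in the longest. A fit with the GC trend taken out of each library called 12405 genes, 6291 higher and 6114 lower. In that fit 26 NF-kappaB genes were higher and 5 lower (median 0.67), 2 interferon genes higher and 62 lower (median -0.46), 4 cholesterol genes higher and 29 lower, and 6 ATF4 genes higher and 35 lower. Whether the trend comes from the library preparation or from the cells cannot be told apart, since 1 batch holds 1 set.

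**Figure D5:**
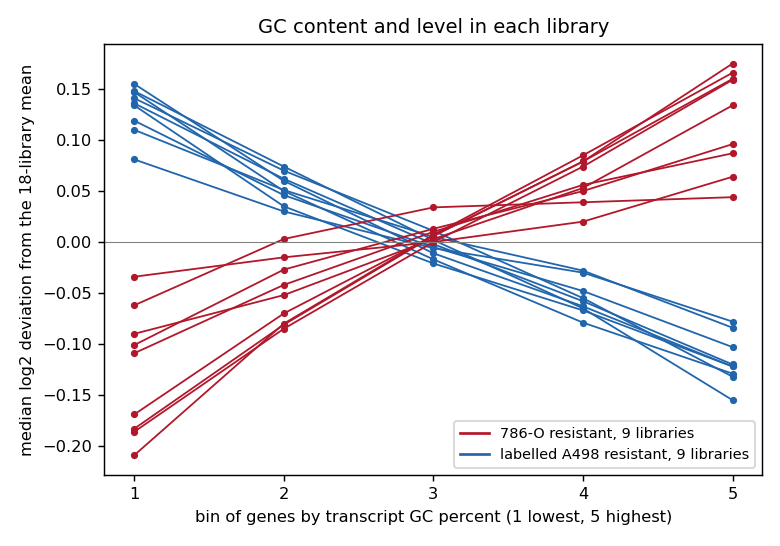
Median log2 deviation of each library from the mean of the 18 libraries, in 5 bins of genes by transcript GC percent (1 lowest, 5 highest). Each line is 1 library. The A498-labelled libraries fall and the 786-O resistant libraries rise from the lowest to the highest bin, and the 2 sets do not overlap in the first and last bin.

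By chromosome, genes of chromosome 16 were highest in 786-O resistant cells, with a median of 0.203 over 753 genes. Of these 753 genes, 495 (65.7%) were called higher and 98 lower. Over all 15023 genes at 1 CPM or more, 5693 (37.9%) were called higher and 5664 (37.7%) lower. Chromosomes 22 and 9 had medians of 0.132 and 0.110, and chromosomes 4, 18 and 5 of -0.136, -0.124 and -0.110, against 0.004 over all 15023 genes at 1 CPM or more. With the GC trend taken out, chromosome 16 was at 0.106 and chromosome 9 at 0.085, while chromosomes 22, 4, 18 and 5 were at 0.034, -0.034, -0.024 and -0.024 and chromosome 19 at -0.108.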

How the data were processed

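Polyadenylated RNA was sequenced from 36 libraries, with a stranded mRNA kit per the labels' protocols. The authors deposited raw read counts per gene in 1 table of 45478 gene identifiers, and 32477 were matched to a symbol. Per the submitters' processing notes, HISAT2 2.1.0, featureCounts 1.6.3, Trimmomatic 0.36.6 and bcl2fastq 2.19.0 were used with build GRCh38. Neither the annotation release nor the strand setting is given in the sources used here. Named genes with 10% or more of their exonic length shared with a neighbour are therefore marked with that share at 1 mention. Coordinates are from GENCODE release 29. Groups follow the labels. Nothing there says that replicates were grown as separate cultures, and p-values then reflect spread among these samples alone, which may be technical.

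Counts of the 18 resistant libraries were fitted with edgeR 4.0.16 (R 4.3.3; TMM, filterByExpr, quasi-likelihood F test, Benjamini-Hochberg over 19196 genes, threshold 0.05) with 1 mean per antibody group; the script was tested on simulated data. CPM are over raw totals. Promoter sequences are from RefSeq (GRCh38.p14). Genes named are the 12 highest and 12 lowest that passed under each antibody without overlap at 5 CPM or more, up to 4 per list by size of difference at 1 CPM or more, CD274, VHL, HIF1A and EPAS1, the 4 leading interaction genes and the 4 highest genes of each parental line; other list members, and CERS4 and IGFBP4, were named after their values were seen. The comparison and its 33 gene lists were chosen with earlier results of these data known. Alternatives were DESeq2 1.42.0, other scalings and filters, thinned depth, all 36 libraries, a replicate block and leaving out each library; the GC offset was chosen after seeing the data. Depth was 19994882 to 51966798 counts per library, which limits precision at low CPM. Values of some genes that the rule named are not reported here.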

Additional observations from a re-analysis of the deposited data

Results flagged for a closer look

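A498-labelled resistant avelumab replicate 3 had 37219906 counts, far from the other 8 libraries of its set in depth, the next of which had 25542807. The cutoff that flagged it is passed by about 1 in 20 groups by chance, and how rare a gap of this size is was not computed. Without it, the averaged comparison is in the range given below.

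For the genes listed here the change from atezolizumab to avelumab differed between the sets by the interaction test, and in each it was greater in 786-O resistant cells. On the log2 scale, the difference was 1.694 for DHRS3, 1.531 for EGR1, 0.853 for MAP7D2, 0.833 for CLDN2, 0.586 for CD24, 0.584 for TXNIP, 0.501 for GPNMB, 0.452 for CDH6, 0.449 for H2AC6 and 0.304 for IGFBP3. Adjusted p of the joint test ran from 2.24e-08 for DHRS3 to 0.0352 for CDH6.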

How the results depend on the processing

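Of the 146 named genes, 141 were called by the averaged test. Direction and call were kept by 141 under every alternative run that tested them, and the strict filter left some genes of low level untested. Of the other 5, HIF1A turned to 0.301 and TXNIP to 0.018 with the GC offset, and CD274 passed there (0.219). EPAS1 turned to 0.009 without a filter and ran from -0.01 to 0.012 with 1 library left out. MT2A passed (0.147) without A498-labelled durvalumab replicate 3. With 1 library left out the averaged count ran from 12901 to 13268, atezolizumab from 9507 to 10768, avelumab from 8108 to 9761 and durvalumab from 8082 to 9489. Interaction counts were 72 with DESeq2, 219 without a filter, 28 with thinned depth and 14 to 94 with 1 library left out. They were 25, 14 and 29 without A498-labelled atezolizumab replicate 1, 2 or 3, 16, 20 and 26 without avelumab replicate 1, 2 or 3, 17 and 26 without 786-O resistant atezolizumab replicate 2 or 3, 23 without avelumab replicate 3 and 94 without durvalumab replicate 1; the cause was not tested. Genes at least 2-fold higher were 985 without a filter and 177 with a strict one (433 to 521 leaving 1 library out), and lower 1033 and 252 (598 to 653), since the filters change how many low genes are tested. Line genes at 5 and 0.5 CPM gave A498 medians of 1.63% in 786-O resistant and 2.04% in A498-labelled cells, and at 20 and 0.05 CPM 0.0599% and 0.260%, with 54.4% and 55.9% for 786-O genes (3 genes). Chromosome medians with the GC offset were -0.034 (4), 0.085 (9), 0.106 (16), -0.024 (18) and 0.034 (22), with raw totals -0.166, 0.080, 0.173, -0.154 and 0.102, and at 10 CPM 0.121 for chromosome 9. Groups share replicate numbers, but same-numbered libraries of the 2 sets under the same antibody correlated at only -0.119 to 0.042 (9 pairs). Libraries of other numbers correlated at -0.136 to 0.15 (18 pairs), so no pairing between the sets was seen. Pairing across antibodies within a set was not tested. A replicate block gave 13153 averaged and 21 interaction calls, against 44 interaction calls without it.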
